A study of Mus musculus with 6 samples.

Results

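The 51 genes described here are the WNT signalling module: 13 Wnt ligands, 3 R-spondins, 10 Frizzled receptors, 2 LRP co-receptors, 2 R-spondin receptors, 7 secreted antagonists, 7 feedback targets, 3 genes of the destruction complex and beta-catenin, and 4 TCF/LEF transcription factors. They were chosen by name, and each of the 51 symbols was found among the 52550 genes of the deposited files. RNA-seq was compared between 3 mouse medulloblastomas labelled wild type for Eed and 3 labelled Eed mutant. Medulloblastoma is a cancer that arises in the cerebellum, and the Eed protein belongs to the core of Polycomb repressive complex 2, which puts a silencing methyl mark on histones. All 6 samples were tumour tissue from which total RNA was taken. The sources used here do not state the Eed allele, the means by which Eed was altered, the strain, the age or the tumour model. The file names hold a code (P38, P19 or P18), and whether it stands for an age is not stated. Only wild-type replicate 1 has P38. Whether each tumour is from a different animal is not stated in the labels, so p-values reflect the spread among these samples alone, which may be technical.

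In canonical WNT signalling a secreted Wnt protein bridges a Frizzled receptor and LRP5 or LRP6, which stops a complex of Axin and Apc from destroying beta-catenin. Beta-catenin then works with TCF/LEF factors on target genes, several of which (Axin2, Nkd1, Notum, Rnf43, Znrf3) restrain the pathway again. Activating changes in this pathway define one of the molecular subgroups of human medulloblastoma, while tumours driven by Hedgehog signalling arise from granule neuron progenitors.

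Libraries held 26186236 to 26425111 estimated counts, with 28424 to 28635 genes above 0. Levels below are CPM (estimated counts scaled to library size with TMM factors) when samples are compared, and TPM (which also corrects for length) when genes are compared. At this depth 3 counts equal 0.113 to 0.115 CPM per library. Eed itself was at 43.8, 30.1 and 35.6 CPM in the wild-type tumours and at 32.6, 36.8 and 30.7 CPM in the mutants, here and below in replicate order (log2 fold change -0.13, SE 0.144, edgeR adjusted p = 0.656). The groups overlapped, and with an unknown allele this level does not check the labels. Markers of cerebellar granule progenitors were present in every library, at a sum of 3640 to 4239 CPM over 8 genes.

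Promoter windows are shown for the pair of members that DESeq2 called (Nkd1 and Tcf7l1) and for a pair of widely used WNT target genes (Axin2 and Sp5), because the results below set these against each other. Each window runs from 250 bases before to 50 bases after a start in RefSeq (GRCm38.p6), 5′ to 3′ on the gene's strand. Capitals mark the TCF/LEF words searched on both strands, which read CTTTG followed by AA, AT, TA or TT, or the reverse complement of that.
Tcf7l1: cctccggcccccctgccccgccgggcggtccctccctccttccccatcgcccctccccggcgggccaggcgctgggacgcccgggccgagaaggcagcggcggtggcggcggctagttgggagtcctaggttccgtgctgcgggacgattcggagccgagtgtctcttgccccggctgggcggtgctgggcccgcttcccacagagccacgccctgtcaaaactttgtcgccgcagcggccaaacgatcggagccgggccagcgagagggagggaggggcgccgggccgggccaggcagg
Nkd1: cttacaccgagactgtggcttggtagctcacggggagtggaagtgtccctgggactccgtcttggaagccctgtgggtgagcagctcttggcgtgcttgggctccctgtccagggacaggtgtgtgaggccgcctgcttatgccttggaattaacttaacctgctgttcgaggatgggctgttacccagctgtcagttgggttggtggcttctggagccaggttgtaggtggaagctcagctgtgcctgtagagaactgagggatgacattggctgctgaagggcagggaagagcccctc
Axin2: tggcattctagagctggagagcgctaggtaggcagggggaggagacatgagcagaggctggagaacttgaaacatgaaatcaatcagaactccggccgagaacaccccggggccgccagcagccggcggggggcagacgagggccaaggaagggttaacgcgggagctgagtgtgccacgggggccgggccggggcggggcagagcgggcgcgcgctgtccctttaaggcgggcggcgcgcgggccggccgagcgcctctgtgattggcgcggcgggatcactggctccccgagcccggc
Sp5: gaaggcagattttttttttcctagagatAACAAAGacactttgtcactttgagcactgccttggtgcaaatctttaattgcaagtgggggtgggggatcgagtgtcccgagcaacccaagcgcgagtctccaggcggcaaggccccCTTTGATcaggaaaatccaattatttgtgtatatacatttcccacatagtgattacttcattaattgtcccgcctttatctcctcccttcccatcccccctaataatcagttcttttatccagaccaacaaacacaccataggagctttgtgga
The Tcf7l1 window lies at chr6:72788996-72789295 on the minus strand, the Nkd1 window at chr8:88527383-88527682 on the plus strand, the Axin2 window at chr11:108920099-108920398 on the plus strand and the Sp5 window at chr2:70474673-70474972 on the plus strand. Transcripts that start in these windows took 84.5% of the counts of Tcf7l1, 26.5% of Nkd1, 89.3% of Axin2 and 100% of Sp5, so the Nkd1 window is not that of its most abundant transcript. The Tcf7l1 and Axin2 windows were rich in CpG, with 34 and 31 CpG pairs, while those of Nkd1 and Sp5 held 6 each. Sp5 held 2 of the words and the other windows shown held none. Of 32 members with a window, taken as 1 window each, 4 held a word (Wnt3, Fzd7, Dkk1 and Sp5), which is 12.5%. Among 15987 windows of 12518 tested genes, where a gene can have several, 12.36% held a word. The sets are thus not built alike, and the members include genes too low to test, such as Dkk1. Transcripts that start in the Fzd7 window took 0% of its counts. The members' windows had a median of 24.5 CpG pairs and 66.2% GC, against 18 and 60% for those 15987 windows. A word is a match of letters and not a binding site.

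On the TPM scale the module spanned the whole range from undetected to very abundant RNA in these tumours. Ctnnb1, which encodes beta-catenin, had the highest level at 553 TPM on average over the 6 samples. Sfrp1, a secreted antagonist that binds Wnt proteins, followed at 243 TPM. Nkd1, an inhibitor that acts on Dishevelled, stood at 135 TPM, Apc at 82.1 TPM and Sfrp2 at 71.4 TPM. The receptors were well represented: Fzd7 averaged 49.96 TPM, Fzd3 33.8 TPM, Fzd2 31.4 TPM and Lrp6 30.8 TPM. The classic target Axin2 was at 18.8 TPM and the stem cell receptor Lgr5 at 14.1 TPM.
The ligands were at the low end of the module. Wnt5a at 4.50 TPM, Wnt4 at 4.37 TPM and Wnt7a at 4.23 TPM led them, and the R-spondins, which strengthen Wnt signals, did not exceed 0.856 TPM (Rspo3). Wnt3a had 0 counts in all 6 libraries, which allows up to 3 counts in each. Wnt1 and Wnt10a had 1 count each over the 6 libraries, both in wild-type replicate 1. Wnt6, Wnt10b, Wnt11 and Dkk1 had 18, 20, 9 and 7.56 estimated counts in all, so these 7 genes were too low to test.

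**Figure D1:**
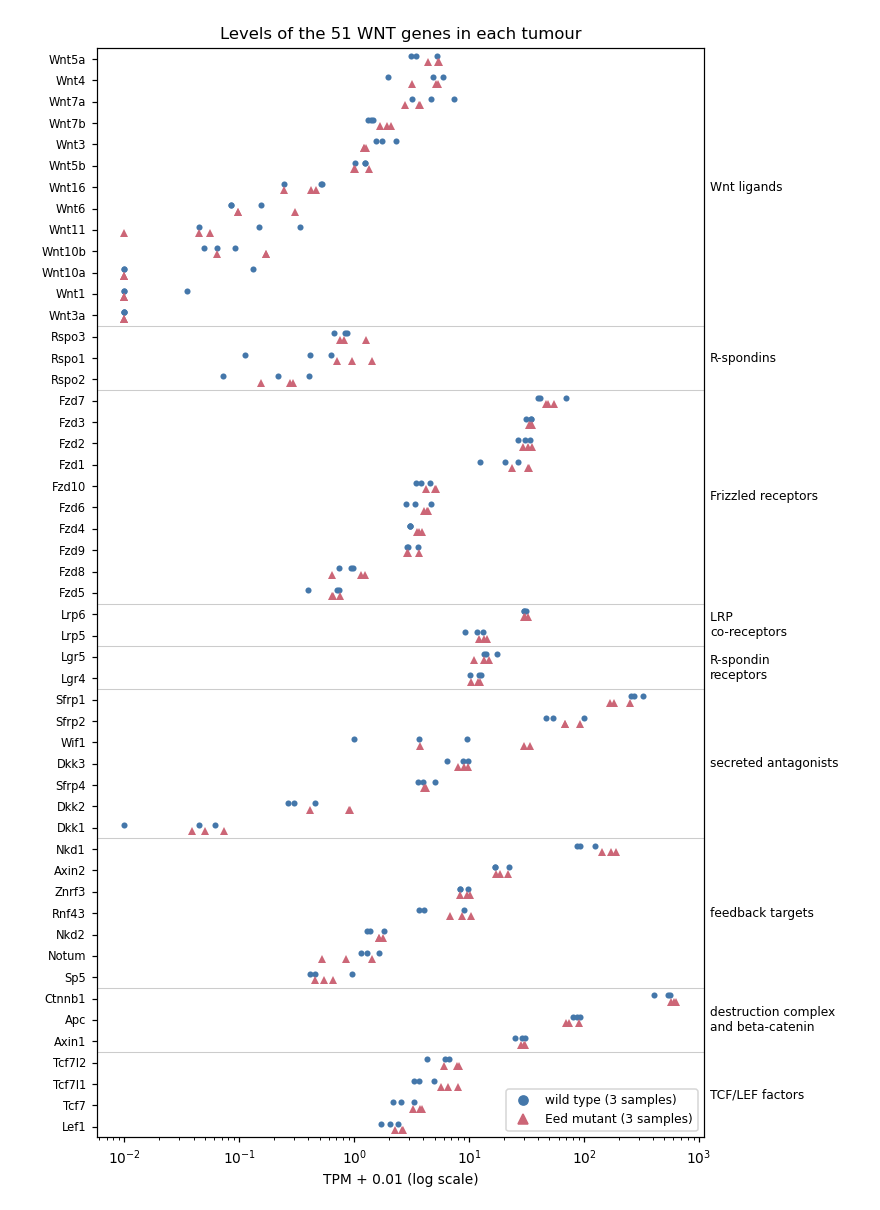
Levels of the 51 WNT genes in each tumour, as TPM plus 0.01 on a log axis, ordered by role and mean level. Circles are the 3 wild-type samples and triangles the 3 Eed mutant samples. Ctnnb1, Sfrp1 and Nkd1 sit at the right end, no Wnt ligand is above 7.41 TPM and no R-spondin above 1.41 TPM.

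Nkd1 and Tcf7l1 rose in the Eed mutant tumours, by 1.70-fold and 1.79-fold. They were the only members that DESeq2 called, 2 higher and 0 lower of 42 with an adjusted p, against a background of 2.96% of 17679 genes called higher and 2.26% called lower. edgeR, the main test, called 0 of the 44 members it tested at an adjusted p of 0.05, as it called 0 of all 19145 genes (0%). At an unadjusted p under 0.05 edgeR had 9 members higher (20.5% of 44) and 2 lower (4.55%), where over all genes 9.29% were higher and 8.78% lower. The groups did not overlap for 9 members on the higher side and 2 on the lower side, which is 25% of the 44, and for 25% of all tested genes. The total share of members whose groups stand apart thus equals the background. By direction, all 19145 tested genes held 2512 on the higher side and 2282 on the lower side, a more even split than among the members.
The log2 fold change, mutant minus wild type, was above 0 for 35 of the 44 tested members and below 0 for 9, with a median of 0.16. Over all tested genes the median was -0.0089, with 9301 above 0 and 9844 below. Wild-type replicate 1 was the lowest of the 6 libraries for 15 of the 44 members (34.1%, against 15.4% of all tested genes), and wild-type replicate 2 for 19 (43.2%, against 26.8%).

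**Figure D2:**
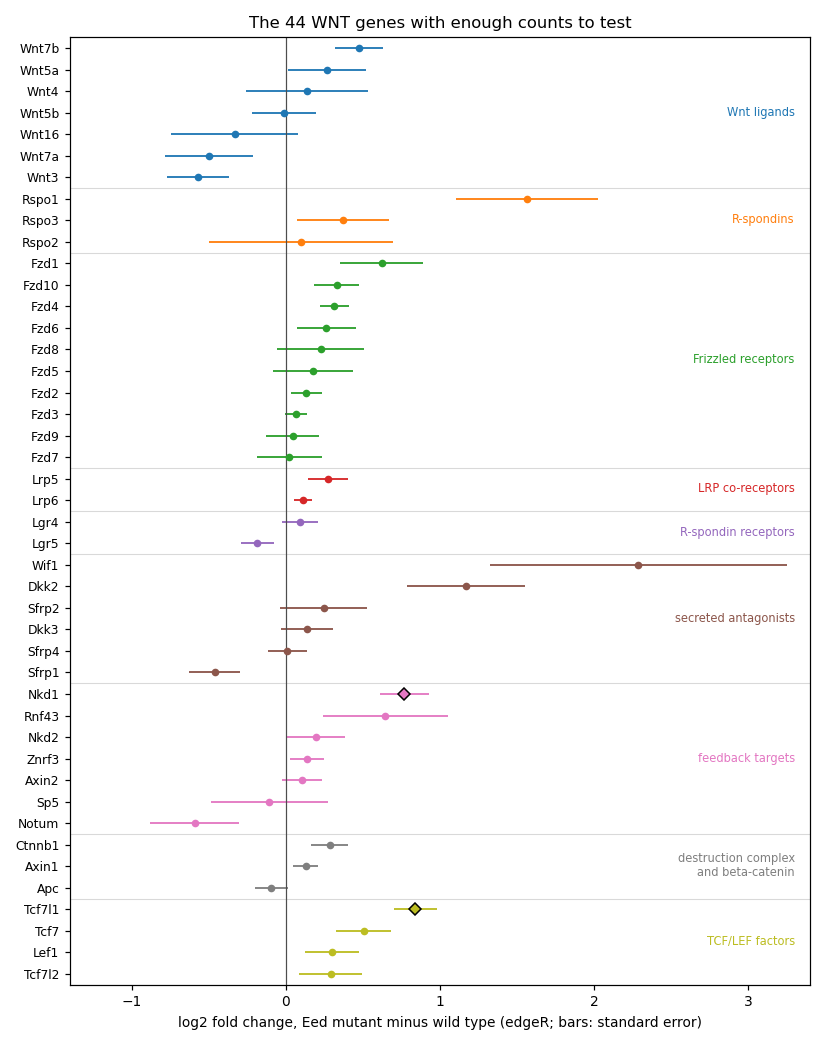
Log2 fold change, Eed mutant minus wild type, of the 44 WNT genes with enough counts to test, by role and with edgeR standard errors as bars. Diamonds mark Nkd1 and Tcf7l1, the members that DESeq2 called. All 10 Frizzled receptors and all 4 TCF/LEF factors lie above 0 in this fit and under the 4 other scalings, and the bars of most genes are wide against their distance from 0.

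Marker lists of other cell types and states were measured beside the WNT genes, and since these are bulk samples, fewer cells of a type and less RNA per cell cannot be told apart. All 10 endothelial markers had a log2 fold change above 0, with 2 called higher by DESeq2, and their summed level was 134 to 181 CPM in wild type and 193 to 208 CPM in the mutants. Pericyte and smooth muscle markers were above 0 for 6 of 7, with 2 called higher, at 162 to 201 CPM against 219 to 255 CPM. Skeletal muscle markers were above 0 for 10 of 10, with 8 called higher, at 60.1 to 110.4 CPM against 139.6 to 459 CPM. In the other direction, oligodendrocyte lineage markers were below 0 for 12 of 14, with 7 called lower, at 1355 to 2376 CPM against 1028 to 1145 CPM. Purkinje markers were below 0 for 5 of 5, with 2 called lower, at 599 to 918 CPM against 397 to 547 CPM. Markers of differentiated granule neurons were below 0 for 6 of 7, with a median log2 fold change of -0.94 and 2 called lower (Gabra6 and Grin2c), and their sums overlapped at 912 to 1563 CPM against 816 to 1238 CPM. The sums of the next lists overlapped too. Microglia markers were below 0 for 7 of 7, with 1 called lower, at 171 to 252 CPM against 149.7 to 192 CPM. Proliferation genes were above 0 for 6 of 6, with 0 called, at 1856 to 2397 CPM against 2294 to 2747 CPM. Granule progenitor markers were above 0 for 3 of 8 and below for 5, with 1 called higher (Ccnd1), at 3935 to 4129 CPM against 3640 to 4239 CPM. Astrocyte and Bergmann glia markers were below 0 for 5 of 8, with 0 called. Fibroblast and meninges markers were below 0 for 6 of 7, with 1 called lower. Choroid plexus and ependyma markers were below 0 for 5 of 7 tested, with 0 called. No defining marker of these lists was at 0 in all 6 libraries. Their part in the WNT results was not tested.

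Among the ligands there was no common direction. Of 7 tested ligands 3 were above 0 and 4 below, with a median of -0.012, and DESeq2 called 0 of the 6 with an adjusted p. Wnt7b, a ligand known for its role in brain blood vessel growth, measured 3.17, 3.07 and 3.31 CPM in wild type and 4.88, 3.92 and 4.46 CPM in the mutants. All mutant values lay above all wild-type values (log2 fold change 0.47, SE 0.154), but the edgeR adjusted p was 0.201 and DESeq2 gave 0.192. Wnt3 went the other way, with 2.87, 4.32 and 3.19 CPM in wild type and 2.30, 2.42 and 2.27 CPM in the mutants. The Wnt3 groups did not overlap either (log2 fold change -0.57, SE 0.200, edgeR adjusted p = 0.22).
The most abundant ligands overlapped between the groups. Wnt5a, which often signals without beta-catenin, measured 14.8, 8.63 and 8.56 CPM in wild type and 13.6, 10.1 and 14.9 CPM in the mutants (log2 fold change 0.27, SE 0.254). Wnt4 measured 15.5, 5.19 and 12.9 CPM in wild type and 14.0, 14.5 and 8.51 CPM in the mutants (log2 fold change 0.14, SE 0.396). The value of 5.19 CPM belongs to wild-type replicate 2, and without that library the Wnt4 difference was -0.20. The other tested ligands, Wnt5b, Wnt7a and Wnt16, ranged from -0.50 to -0.012.

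R-spondins bind Lgr receptors and keep Rnf43 and Znrf3 from removing Frizzled from the cell surface. Rspo1 measured 0.415, 0.114 and 0.456 CPM in wild type and 1.31, 0.807 and 0.832 CPM in the mutants. Every mutant value was above every wild-type value (log2 fold change 1.57, SE 0.461, edgeR adjusted p = 0.178, DESeq2 0.1). The gene is rare, with 25.9 counts in the wild-type group as a whole and 76.6 in the mutant group. It reached the level of the filter on low counts in 2 wild-type and 3 mutant libraries, so it did not pass on the wild types alone. Rspo3 measured 1.06, 1.36 and 1.07 CPM in wild type and 2.11, 1.08 and 1.32 CPM in the mutants, with overlapping groups (log2 fold change 0.37, SE 0.297). Rspo2 was at 0.098.

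All 10 Frizzled receptors had a log2 fold change above 0, from 0.022 to 0.62 with a median of 0.20, and kept it under each of the 4 other scalings tried. DESeq2 called 0 of the 10. Fzd4, a receptor known from blood vessel growth in retina and brain, was very even within each group. It measured 11.7, 11.7 and 11.8 CPM in wild type and 14.1, 14.4 and 15.2 CPM in the mutants (log2 fold change 0.31, SE 0.093, edgeR adjusted p = 0.18, DESeq2 0.121). It was the only Frizzled gene of the 10 whose groups did not overlap, which is 10%, against 25% of all tested genes. Fzd7 and Fzd3, the most abundant Frizzled genes by TPM, showed no such separation. Fzd7 measured 110.2, 117 and 193 CPM in wild type and 139, 156 and 131 CPM in the mutants, so that wild-type replicate 3 was above all others (log2 fold change 0.022, SE 0.210, and -0.12 without wild-type replicate 1). Fzd3 measured 210, 232 and 234 CPM in wild type and 239.5, 244 and 224 CPM in the mutants (log2 fold change 0.066, SE 0.069).
Fzd1 had the largest Frizzled difference, 69.0, 32.3 and 53.0 CPM against 89.2, 62.3 and 86.1 CPM (log2 fold change 0.62, SE 0.269). Its groups overlapped, since mutant replicate 2 was below wild-type replicate 1, and it is named here after its values were seen. DESeq2 called Fzd1 without wild-type replicate 1 (adjusted p = 0.0123) and when the code in the file name was a term (adjusted p = 0.000382). Wild-type replicate 1 alone has its code, so both fits take that library out of the genotype comparison. Fzd1 was not called with any other library left out or with sex by expression as a term. The LRP co-receptors differed little. Lrp6 measured 134, 127 and 138 CPM in wild type and 144, 147 and 139.7 CPM in the mutants, which do not overlap and are 1.08-fold apart on average (log2 fold change 0.11, SE 0.057, edgeR adjusted p = 0.354). Lrp5 measured 41.6, 31.6 and 43.4 CPM in wild type and 47.1, 43.4 and 50.2 CPM in the mutants (log2 fold change 0.27, SE 0.129).
Of the R-spondin receptors, Lgr5 measured 24.9, 31.0 and 27.6 CPM in wild type and 22.7, 24.3 and 26.5 CPM in the mutants (log2 fold change -0.18, SE 0.108). Lgr4 measured 26.4, 32.3 and 31.0 CPM in wild type and 34.0, 27.6 and 33.9 CPM in the mutants (log2 fold change 0.091, SE 0.117), and its difference was -0.0011 on the TPM scale. Both overlapped between the groups.

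The secreted antagonists did not move together. Sfrp1, the most abundant of them, measured 693, 666 and 838 CPM in wild type and 489, 664 and 444 CPM in the mutants. The mutants were all lower, though mutant replicate 2 at 664 CPM nearly reached wild-type replicate 2 at 666 CPM (log2 fold change -0.46, SE 0.166, edgeR adjusted p = 0.228, DESeq2 0.0965). Sfrp1 was called lower by DESeq2 with sex by expression as a term (adjusted p = 0.0114) and without mutant replicate 2 (adjusted p = 0.00055). DESeq2 did not call it with the file code as a term (adjusted p = 0.156) or with any other library left out (0.0903 to 0.606). Sfrp2 measured 58.3, 51.8 and 109 CPM in wild type and 77.7, 105 and 77.3 CPM in the mutants, with overlap (log2 fold change 0.24, SE 0.284). Its highest value was in wild-type replicate 3, and without that library the difference was 0.65 (DESeq2 adjusted p = 0.0075). No other DESeq2 fit called Sfrp2.
Wif1, a secreted protein that binds Wnts directly, had the largest difference of the module and the largest spread. It measured 10.5, 0.984 and 3.57 CPM in wild type and 37.6, 4.03 and 31.8 CPM in the mutants (log2 fold change 2.28, SE 0.963, edgeR adjusted p = 0.275). Mutant replicate 2 lay below wild-type replicate 1, so the groups overlapped, although mutant replicates 1 and 3 were far above the other 4 samples. With the file code as a term DESeq2 called Wif1 (adjusted p = 0.0439). DESeq2 did not call it with sex by expression as a term (adjusted p = 0.438) or with any library left out (0.0676 to 0.873). Dkk2, which binds the LRP co-receptors, had the same 2 mutants on top: 0.906, 0.530 and 0.608 CPM in wild type and 1.92, 0.845 and 1.85 CPM in the mutants (log2 fold change 1.17, SE 0.382, edgeR adjusted p = 0.2). DESeq2 called Dkk2 only when mutant replicate 2 was left out (adjusted p = 0.0442). Dkk2 is named here after its values were seen. Dkk3 was at 0.14, and Sfrp4 was at 0.0093 and below 0 with library size alone (-0.0087) and on the TPM scale (-0.0065).

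**Figure D3:**
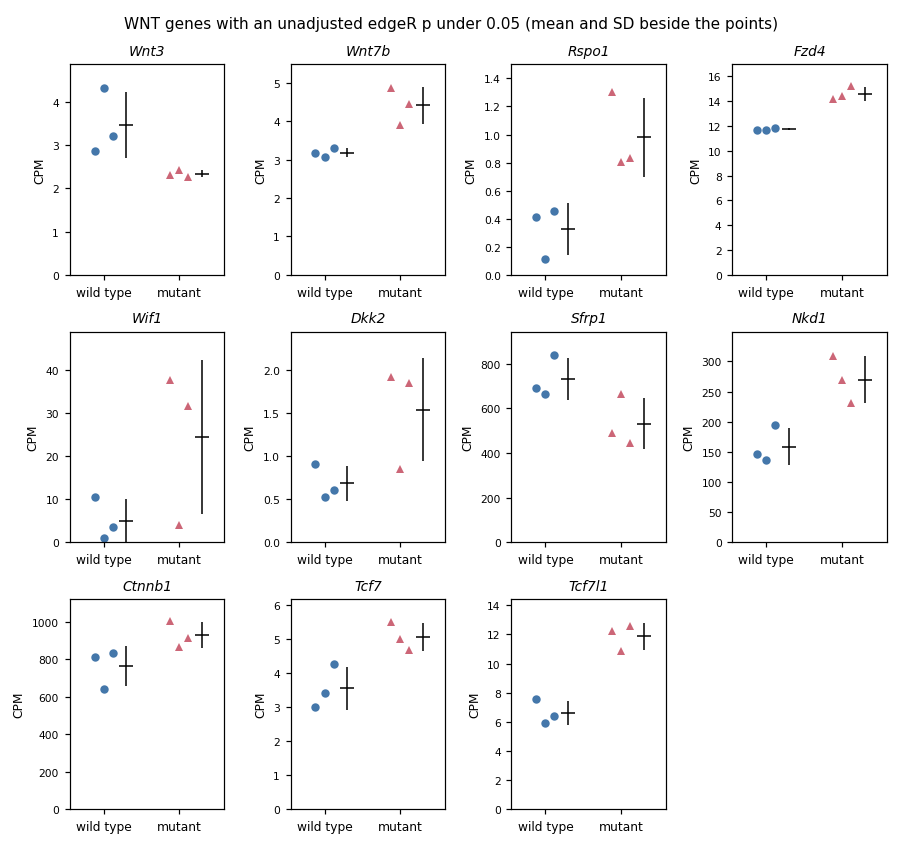
CPM of the 11 WNT genes with an unadjusted edgeR p under 0.05, in the 3 wild-type (circles) and 3 Eed mutant samples (triangles, in replicate order), with the mean and SD beside the points. Nkd1 and Tcf7l1 are clear of overlap, Fzd4 is very even within groups, and the Wif1 and Dkk2 groups overlap through mutant replicate 2.

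The feedback targets split. Nkd1 (ENSMUSG00000031661.12, chromosome 8, 88521354 to 88594884, plus strand) measured 146, 136 and 194 CPM in wild type and 309, 269 and 231 CPM in the mutants. The lowest mutant was above the highest wild-type sample, and the means were 158.5 ± 30.8 and 269.8 ± 38.8 CPM (SD, n = 3). Its log2 fold change was 0.77 (SE 0.158), with an adjusted p of 0.000579 in DESeq2 and 0.143 in edgeR. The DESeq2 call held in all 9 alternative DESeq2 fits, with its highest adjusted p of 0.0476 when mutant replicate 1 was left out.
Axin2, the target most often used to read canonical WNT output, did not follow Nkd1. It measured 36.9, 48.1 and 38.6 CPM in wild type and 41.7, 50.2 and 40.7 CPM in the mutants, interleaved between the groups (log2 fold change 0.10, SE 0.129, edgeR adjusted p = 0.702, DESeq2 0.793). Sp5, a transcription factor induced by WNT, was rare at 0.528, 0.606 and 1.25 CPM in wild type and 0.730, 0.615 and 0.869 CPM in the mutants (log2 fold change -0.11, SE 0.380). Notum, an enzyme that removes the lipid of Wnt proteins, measured 1.47, 1.48 and 1.14 CPM in wild type and 0.653, 0.807 and 1.25 CPM in the mutants (log2 fold change -0.59, SE 0.288, edgeR adjusted p = 0.326). The groups of Sp5 and of Notum overlapped. In the sequences printed above, the windows of Nkd1 and Axin2 hold none of the TCF/LEF words and that of Sp5 holds 2. The Nkd1 window is not that of its most abundant transcript.
Rnf43, a ligase that clears Frizzled from the membrane, measured 3.96, 3.71 and 10.7 CPM in wild type and 10.3, 8.14 and 10.3 CPM in the mutants (log2 fold change 0.64, SE 0.407), and wild-type replicate 3 was as high as the mutants. DESeq2 called Rnf43 only without that library (adjusted p = 9.66e-07). It is named here after its values were seen. Its relative Znrf3 was at 0.14 and Nkd2, the relative of Nkd1, at 0.19. Of the 7 feedback targets, 1 was called, 4 others were above 0 and 2 were below.

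Ctnnb1, the most abundant member, measured 812, 640 and 836 CPM in wild type and 1003, 868 and 915 CPM in the mutants. The mutants were all higher by a small margin, 1.22-fold on average (log2 fold change 0.28, SE 0.119, edgeR adjusted p = 0.274, DESeq2 0.205). Apc measured 504, 599.5 and 539 CPM in wild type and 498, 576 and 464 CPM in the mutants, overlapping (log2 fold change -0.095, SE 0.106). Axin1, the scaffold of the destruction complex, was 1.09-fold higher with groups that did not overlap (log2 fold change 0.13, SE 0.081, edgeR adjusted p = 0.433). RNA levels of these genes do not measure beta-catenin protein, which is controlled by its breakdown.

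All 4 TCF/LEF factors had a log2 fold change above 0, with a median of 0.40, also under each of the 4 other scalings. Tcf7l1 (ENSMUSG00000055799.13, chromosome 6, 72626378 to 72789254, minus strand), known mainly as a repressor of WNT targets, measured 7.55, 5.94 and 6.39 CPM in wild type and 12.2, 10.8 and 12.6 CPM in the mutants. The groups were far apart against their spread, with means of 6.63 ± 0.83 and 11.9 ± 0.91 CPM (SD, n = 3). Its log2 fold change was 0.84 (SE 0.140), with an adjusted p of 6.97e-05 in DESeq2 and 0.121 in edgeR, the smallest edgeR value of the module. It stayed called in all 9 alternative DESeq2 fits, at adjusted p values up to 0.0137. A gene on the opposite strand, Gm15401, overlaps it, and without strand information their reads cannot be told apart. The same holds for Wnt5a, Wnt7b, Rspo3, Fzd5, Fzd6, Sfrp2, Axin2, Notum, Ctnnb1, Lef1 and, of the other pathway genes named below, Tle1 and Vangl1.
Tcf7 measured 3.02, 3.41 and 4.26 CPM in wild type and 5.49, 4.99 and 4.69 CPM in the mutants, with no overlap (log2 fold change 0.51, SE 0.179, edgeR adjusted p = 0.223, DESeq2 0.176). Lef1, itself a frequent target of the pathway, measured 3.06, 4.09 and 3.73 CPM in wild type and 3.92, 4.57 and 4.88 CPM in the mutants (log2 fold change 0.30, SE 0.177). Tcf7l2 measured 14.3, 8.71 and 11.9 CPM in wild type and 15.7, 11.8 and 15.1 CPM in the mutants (log2 fold change 0.29, SE 0.201). The last pair overlapped between the groups.

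**Figure D4:**
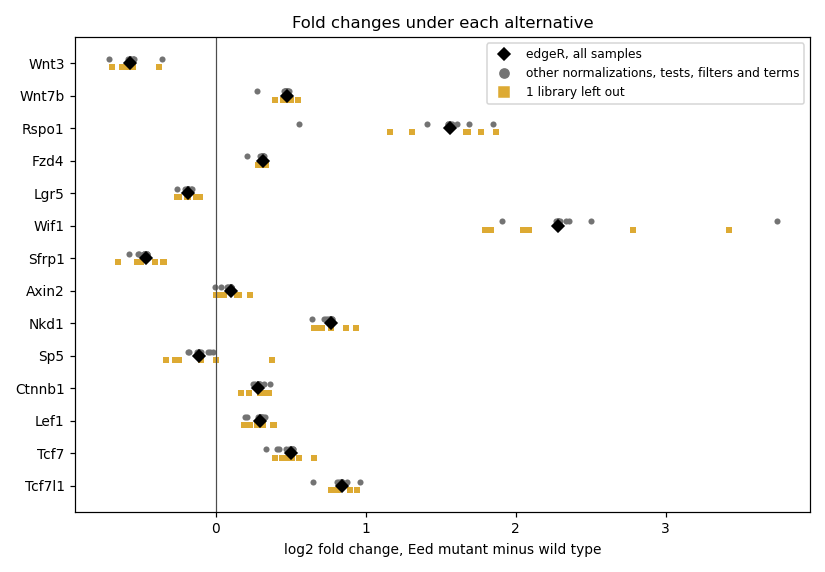
Log2 fold changes of 14 WNT genes under each alternative: black diamonds are edgeR on all samples, grey circles other normalizations, tests, filters and terms, and yellow squares fits with 1 library left out. Nkd1 and Tcf7l1 stay between 0.65 and 0.96, whereas Sp5 and Axin2 cross 0 and Wif1 spreads from 1.80 to 3.74.

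A second list held 66 other genes of the pathway, of which edgeR tested 57. At an unadjusted p under 0.05 it had 9 of them higher (15.8%) and 3 lower (5.26%), against 9.29% and 8.78% of all genes, and their median log2 fold change was 0.029. The groups did not overlap for 16 on the higher side and 6 on the lower side, which is 38.6%, against 25% of all tested genes. This list was chosen with earlier results of these data known, so its distance from the background is not independent of them. DESeq2 called 4 higher and 1 lower of 56, against 2.96% and 2.26% of all genes. Apcdd1, a membrane inhibitor of WNT signalling that is itself a WNT target, rose from 77.2, 66.9 and 95.5 CPM in wild type to 148, 119 and 141 CPM in the mutants (log2 fold change 0.77 with an SE of 0.142, DESeq2 adjusted p = 0.000138). It was called in all 9 alternative DESeq2 fits.
Ror2, a receptor for Wnt5a, rose from 17.5, 9.92 and 14.0 CPM to 28.1, 23.6 and 24.9 CPM (log2 fold change 0.89 with an SE of 0.199, DESeq2 adjusted p = 0.00169), and its call was lost without mutant replicate 1 (adjusted p = 0.0956). Celsr1, a cadherin of planar cell polarity, rose from 25.9, 13.5 and 22.7 CPM to 38.5, 32.8 and 39.8 CPM (log2 fold change 0.84 with an SE of 0.227, DESeq2 adjusted p = 0.00951). Celsr3, its neuronal relative, fell from 340, 377 and 325 CPM to 266, 299 and 262 CPM (log2 fold change -0.33 with an SE of 0.085, DESeq2 adjusted p = 0.0357). Tle1, a co-repressor that TCF factors recruit, rose from 131, 106 and 152 CPM to 206, 163 and 178 CPM (log2 fold change 0.49 with an SE of 0.144, DESeq2 adjusted p = 0.0382). The groups of these 5 genes did not overlap. The calls of Celsr1, Celsr3 and Tle1 were each lost with sex by expression as a term (DESeq2 adjusted p = 0.0658, 0.168 and 0.165), without mutant replicate 1 (0.177, 0.403 and 0.459) and without mutant replicate 3 (0.141, 0.28 and 0.199). Those of Celsr3 and Tle1 were also lost without wild-type replicate 1 (0.074 and 0.0936), without wild-type replicate 2 (0.103 and 0.105) and when the code in the file name was a term (0.0916 and 0.0634).
Vangl1, another polarity gene, measured 12.3, 11.5 and 11.8 CPM in wild type and 14.9, 15.5 and 15.1 CPM in the mutants, apart but not called (log2 fold change 0.35 with an SE of 0.092, DESeq2 adjusted p = 0.0645). Dkkl1 passed the filter on low counts through the mutants only and has no DESeq2 adjusted p.

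**Figure D5:**
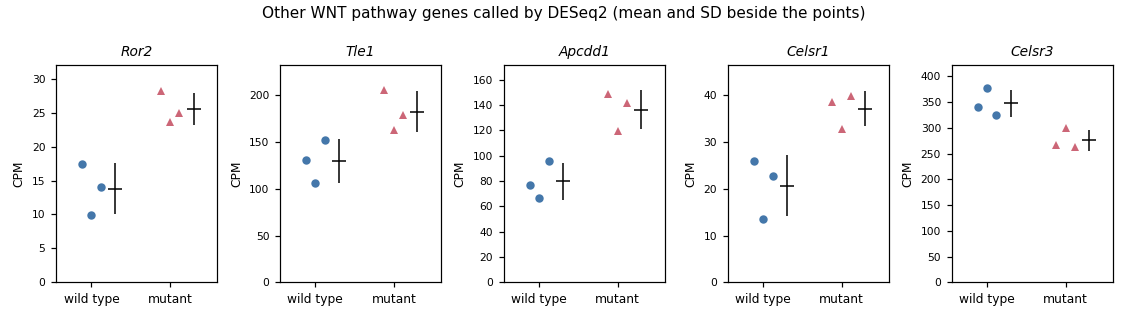
CPM of the 5 other WNT pathway genes that DESeq2 called, in the 3 wild-type (circles) and 3 Eed mutant samples (triangles), with the mean and SD beside the points. Ror2, Tle1, Apcdd1 and Celsr1 are higher and Celsr3 is lower in every mutant than in every wild-type sample.

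The files give transcripts, so the share of a gene's counts in its main transcript could be compared as well. Of 27 members with enough counts, 17 were compared, with 20 transcripts. Shares that hardly varied over the 6 samples were left out, a choice made on the shares themselves. Among the 20, 2 had groups that did not overlap, Fzd6-202 and Lgr4-201. Their exact two-sided permutation p was 0.1, the smallest that 3 against 3 allows, and 0.667 after adjustment over the 20. The share of transcripts with groups apart over all genes was not measured, so these 2 are not read as a result about the members. Fzd6-202 took 2.54e-05%, 50.8% and 57.4% of Fzd6 counts in the wild-type tumours and 67.1%, 99.8% and 100% in the mutant tumours. It is 4077 bases long and its sister transcript is nearly identical in length, so the division between them is uncertain. Lgr4-201 took 99.3%, 92.8% and 99.2% in the wild-type tumours and 99.9%, 99.4% and 99.7% in the mutants.
For Nkd1, Tcf7l1 and Axin2 the groups overlapped in the share of the main transcript. Nkd1-201 held 47.3% ± 0.89 of Nkd1 counts in wild-type tumours and 47.7% ± 2.14 in the mutants (SD, n = 3, exact permutation p = 0.9). Tcf7l1-201 held 86.5% ± 3.96 and 82.4% ± 5.95 (SD, n = 3, exact permutation p = 0.5). Axin2-201 held 88.3% ± 4.47 and 90.3% ± 1.76 (SD, n = 3, exact permutation p = 0.7).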

How the data were processed

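The deposited files hold, for each of 6 tumour samples, kallisto estimated counts, effective lengths and TPM per transcript, per the file headers, with no pooling of samples. The authors used kallisto 0.43.1 and GRCm38/mm10, per the submitters' processing notes. Nothing used here states the read length, the strand or how RNA was selected. Estimated counts and TPM were summed per gene by identifier over 131100 transcripts, and counts were rounded. GENCODE M21 (GRCm38) gave coordinates and overlapping genes.

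All genes were fitted with edgeR 4.0.16 in R 4.3.3 (TMM, default filter on low counts, quasi-likelihood F-test), with Benjamini-Hochberg adjustment over 19145 genes at 0.05 and genotype as the only term. DESeq2 1.42.0 and limma 3.58.1 were alternatives. Because edgeR called no gene, the words rose and fell are used for DESeq2 calls. The fits were also run on simulated data, whose outcome is not given here and is not used as support for any call. Each alternative of DESeq2 itself (replicate block, file code, sex by expression, each library left out) was chosen after seeing the data. The members and gene lists were chosen with earlier results of these data known.

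Genes are named with all values if they are widely used pathway readouts, were called by DESeq2, had an unadjusted edgeR p under 0.05 and groups that do not overlap, or are among the 2 members of their role with the highest mean TPM. Of the other pathway genes, those called by DESeq2 and at most 6 others by edgeR p were named. Each file name carries a code, P38, P19 or P18, whose meaning is unknown. Among the mutants, the code is P19 in replicate 1, P19 in replicate 2 and P18 in replicate 3. In the wild-type group it is P38 for the first replicate, P19 for the second and P18 for the third. Whether the code stands for an age is not stated, and an effect of age was not tested. Wild-type replicate 1 alone has its code, so a fit with the code as a term takes that library out of the genotype comparison. Such a fit is therefore not independent of the fit that leaves wild-type replicate 1 out. Xist and Y-linked genes marked wild-type replicate 3 and mutant replicates 1 and 2 as female. Transcript shares were compared for members with a mean of at least 200 counts, where the share varied over the 6 samples.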

Additional observations from a re-analysis of the deposited data

How the results depend on the processing

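Counts of calls moved with the test more than directions did. Over all genes edgeR called 0, DESeq2 923, limma-voom 1, edgeR with no filter on low counts 3, and edgeR with the replicate block 273. With a library left out edgeR called 0 to 9 (4 without wild-type replicate 2, 9 without mutant replicate 2). The 11 members at an unadjusted p under 0.05 became 7 on the TPM scale, 7 with the stricter filter, which tested 39 members, and 4 to 14 with a library left out (4 without mutant replicate 1, 6 without mutant replicate 3 and 6 without wild-type replicate 2). edgeR's count of 0 members at an adjusted p under 0.05 became 2 with DESeq2 and 1 (Wif1, 0.0297) with the replicate block. DESeq2's 2 members became 6 with the replicate block, which added Fzd1, Wif1, Sfrp1 and Ctnnb1. They became 4 with the file code and 2 to 4 with a library left out, and Nkd1 and Tcf7l1 were in each of these fits. The 5 other pathway genes became 2 with sex as a term and 1 to 5 with a library left out (1 without mutant replicate 1, 2 without mutant replicate 3 and 3 without wild-type replicate 1). The 2 transcript shares with groups apart became 3 to 5.

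Of the 26 members named by the rules above, 21 kept their sign under every alternative to the edgeR fit. Wnt4 reversed with sex as a term (-0.066) and ranged from -0.20 to 0.45 with a library left out. Fzd7 reversed with the file code (-0.055) and sex (-0.0902), with a range of -0.12 to 0.32. Lgr4 reversed on the TPM scale (-0.0011). Axin2 reversed with the file code (-0.0049), ranging from -0.0004 to 0.23, and Sp5 ranged from -0.33 to 0.38. The cause was not tested.

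The replicate block gave Nkd1 0.78 and Tcf7l1 0.84. Same-numbered wild-type and mutant samples deviated together with correlations of 0.23, 0.062 and -0.14 over all tested genes. Differently numbered pairs gave -0.29 to 0.19. These values show no common pairing by number, but they cannot tell whether single genes are paired. Calls gained under the block are thus not read as a stronger effect. Depth limits the rare genes: 7 members were too low to test, and Rspo1, Sp5 and Notum rest on 102.5, 121 and 178 counts in all.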

Other observations

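The transcripts of Rnf43 were picked after their values were seen and were not tested between the groups. Rnf43-209, a protein-coding transcript, was at or near 0 estimated counts in all 3 wild-type libraries and had 111, 39.0 and 65.2 in mutant replicates 1 to 3. Rnf43-202, also protein-coding, had 51.01, 47.6 and 116 counts in the wild-type tumours and 4.13, 91.3 and 63.9 in the mutants. Rnf43-206, annotated as a retained intron, held 29.4% to 46.4% of Rnf43 counts in wild type and 25.9% to 33.2% in the mutants, so its counts can hold intron signal. The division of reads between transcripts of 1 gene is an estimate.

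Wnt9b, outside the 51 genes and too low to test, measured 0.302, 0.492 and 0.228 CPM in wild type and 0.0768, 0.0768 and 0.151 CPM in the mutants, with groups apart. It was picked after its values were seen. Kremen1, a receptor for Dkk proteins, measured 29.8, 25.1 and 30.9 CPM in wild type and 35.0, 31.5 and 40.0 CPM in the mutants, apart and not called (DESeq2 adjusted p = 0.205).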
